A study of Mus musculus with 3 samples.

Results

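Shared regions of histone H3 lysine 27 acetylation (H3K27ac) that lay inside protein-coding genes, away from the annotated gene ends, were described in double-negative thymocytes. Peaks of both replicates that overlapped by at least 1 bp were merged on chromosomes 1 to 19 and X, and 4192 merged regions held a peak of each replicate. A region was taken as inside a gene body when its centre lay in a protein-coding gene and over 1 kb from every protein-coding gene end. This held for 836 regions, or 19.9% of the shared regions. The regions were chosen by the positions of the peaks in both replicates, so their number, width and fold enrichment are given as descriptions without a test. Replicate 1 had 12228 peaks on these chromosomes and replicate 2 had 9429, and the read depth behind them is unknown. Fold enrichment and q (the p-value corrected for multiple tests) are the authors' own values for each peak, and coordinates are in mm10.

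The samples were H3K27ac replicates 1 and 2 from thymus of C57BL/6J mice aged 5-7 weeks of the wild type. Per the labels the sorted cells lacked CD4 and CD8, were CD25+ and were either CD44- or CD44+. Fixed chromatin was captured with an H3 antibody, adapters were ligated, and an H3K27ac antibody selected the marked part. An input sample taken ahead of that last step (1 sample) was not analysed here, and the values therefore have no measured background beside them. There was 1 group and no contrast between conditions, and the labels do not say whether the replicates came from separate mice.

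H3K27ac is deposited by the acetyltransferases p300 and CBP and marks nucleosomes next to active promoters and enhancers. Inside a gene the mark can lie at an alternative transcript start, at the downstream edge of a broad promoter domain, at an intronic enhancer, or at the promoter of another gene nested in the host. Such an enhancer may act on its host or on a neighbouring gene. The files here give gene spans and transcript starts but no exons, so exons and introns were not told apart.

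Many of the regions held an annotated transcript start of their own host. The 250 bases before 5 such starts of T-cell genes are shown because they differ widely in CpG content although all lie inside these regions. Sequences are from RefSeq (GRCm38.p6), 5′ to 3′ on the strand of the gene. Capitals mark AGGAAG (Ets factors) and CTTTGA (Tcf/Lef factors) on either strand, the motifs found among the 6 searched, and a match is letters only, not a site.
Ikzf1, upstream start, chr11:11685675-11685924, plus strand: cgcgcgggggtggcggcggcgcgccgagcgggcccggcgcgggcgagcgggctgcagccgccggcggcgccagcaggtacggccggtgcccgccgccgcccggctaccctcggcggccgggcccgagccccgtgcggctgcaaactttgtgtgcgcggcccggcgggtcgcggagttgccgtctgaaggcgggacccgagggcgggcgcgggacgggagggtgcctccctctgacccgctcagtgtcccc
Ikzf1, downstream start, chr11:11689927-11690176, plus strand: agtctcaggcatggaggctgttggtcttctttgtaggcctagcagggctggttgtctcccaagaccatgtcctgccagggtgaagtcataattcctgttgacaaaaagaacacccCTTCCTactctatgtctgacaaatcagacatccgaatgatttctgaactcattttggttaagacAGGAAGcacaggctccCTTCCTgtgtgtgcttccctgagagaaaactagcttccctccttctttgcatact
Bcl11b, chr12:108003415-108003664, minus strand: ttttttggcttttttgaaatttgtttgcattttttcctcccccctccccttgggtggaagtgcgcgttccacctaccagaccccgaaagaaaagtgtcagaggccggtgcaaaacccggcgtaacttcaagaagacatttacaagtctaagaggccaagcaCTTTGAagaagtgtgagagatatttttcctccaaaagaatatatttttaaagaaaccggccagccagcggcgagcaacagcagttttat
Lck, downstream start, chr4:129558373-129558622, minus strand: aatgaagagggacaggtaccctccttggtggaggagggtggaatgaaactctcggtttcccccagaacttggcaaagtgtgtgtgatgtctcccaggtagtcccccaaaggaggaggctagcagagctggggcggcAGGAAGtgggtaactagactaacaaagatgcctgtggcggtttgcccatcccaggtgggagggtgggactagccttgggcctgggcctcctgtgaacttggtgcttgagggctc
Rhoh, chr5:65863334-65863583, plus strand: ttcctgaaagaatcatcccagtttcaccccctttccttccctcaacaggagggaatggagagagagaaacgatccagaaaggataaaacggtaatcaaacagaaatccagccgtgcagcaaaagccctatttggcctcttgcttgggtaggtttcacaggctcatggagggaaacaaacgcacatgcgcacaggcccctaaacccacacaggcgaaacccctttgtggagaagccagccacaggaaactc
The upstream Ikzf1 window held 44 CpG and no searched motif, while the downstream Ikzf1 window held 1 CpG and 3 Ets motif matches. The windows of Bcl11b, Lck and Rhoh held 9, 3 and 6 CpG. The last of these held no searched motif. The windows of the downstream Ikzf1 start, Bcl11b, Lck and Rhoh lay whole (250 bases) inside their merged region, and 139 bases of the upstream Ikzf1 window did. The upstream Ikzf1 start and the Rhoh start lay under peaks of both replicates. The Bcl11b and Lck starts lay under a peak of replicate 1 only, and the downstream Ikzf1 start under a peak of replicate 2 only.

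Many of the regions counted as gene body lay at annotated transcript starts. Of the 836 regions, 349 (41.7%) covered a transcript start of their own host, and 473 (56.6%) held or lay within 1 kb of the start of some gene. For 151 regions no host is in the start table, so an own start could not be counted. Chromosome 18 held 30 of the 836 regions, and many of its hosts, such as Cxxc5, Nfatc1, Rbbp8 and Nr3c1, are not listed. Of the 685 regions with a listed host, 50.9% covered an own start. The start lay under a peak of replicate 1 in 296 of the 349 and under a peak of replicate 2 in 265. It lay under peaks of both in 211. The start table lists 3881 starts of protein-coding genes inside gene bodies and over 1 kb from every gene end, and 9.43% of them lay under one of these regions. The remaining 363 regions (43.4%) had no listed start within 1 kb, and the start table holds the host of only 221 of these, so for the rest a start of the host may be missing from it. Among the other shared regions, those at gene ends covered a start in 71.9% of cases and those outside genes in 4.59%. Genes missing from the start table can make these shares too low as well.

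CpG content of the covered starts was close to that at gene ends. Over the 250 bases before each start, the 444 starts under a region inside a gene body had a median of 20 CpG, and only 24 of them (5.41%) had under 5. The 2627 starts under shared regions at gene ends also had a median of 20 CpG, with 2.02% under 5. Some of the 444 starts lay within 1 kb of a gene end. Of the starts over 1 kb from every gene end, the 366 under a region had a median of 20 CpG with 5.46% under 5, against a median of 5 CpG with 43.1% under 5 for the 3515 under none. Both Ikzf1 starts, printed above, lay under these regions, with 44 and 1 CpG.

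Each of the 6 motifs was less frequent before the covered starts than before all starts. The Ets motif AGGAAG was found in 23.9% of the 444 windows, against 28.7% of all 21045 windows of protein-coding starts. The Runx motif TGTGGT was in 7.66% against 12.2%, the Tcf/Lef motif CTTTGA in 7.43% against 12.8%, and the E protein motif CAGCTG in 7.88% against 12.2%. The Gata motif AGATAA was in 4.73% against 8.84%, and the AP-1 motif TGACTCA in 1.8% against 4.09%. At gene ends the shares were 25%, 8.53%, 8.56%, 9.36%, 4.23% and 1.94% in the same order. The median CpG count was 20 for the covered starts and 10 for all starts, and its part in these shares was not tested.

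Regions over a start of the host lay mostly towards its 5′ end. Among the 674 regions with a single host of known strand, 511 (75.8%) had their centre in the 5′-most 50% of the host, where 50% of the eligible gene-body sequence lies. The 5′-most 10% of the host held 31.9% of these regions and 8.66% of the eligible sequence. Regions over a start of the host were in the 5′-most 50% in 87.1% of 341 cases. Regions with no listed start within 1 kb were there in 52.0% of 221 cases (95% exact binomial interval 45.2% to 58.8%, counting error only), and 9.05% of them lay in the 5′-most 10%. Of the 333 regions not over a start of the host, 64.3% lay in the 5′-most 50% and 20.4% in the 5′-most 10%. Sequence near starts was kept in the eligible sequence, which is therefore no like background for regions chosen away from starts. The median distance from the 5′ end was 3.4 kb for regions over a start of the host and 40.9 kb for regions with no start within 1 kb.

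**Figure D1:**
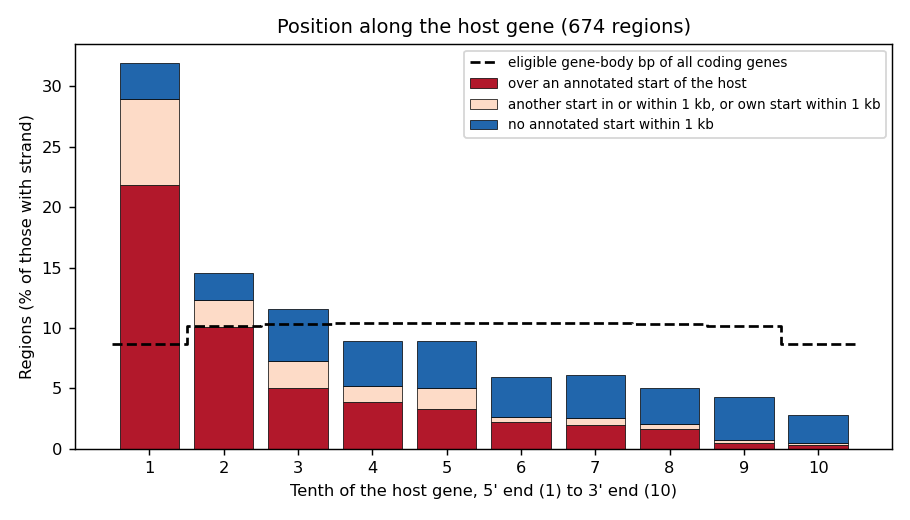
Share of the 674 regions with known strand (y axis, %) in each 10% step of the host gene (x axis, 5′ to 3′). Colours split them by annotated starts, and the dashed line is the share of eligible gene-body bp. The first step reaches 31.9% against 8.66% of bp, while regions with no start within 1 kb spread over the whole gene.

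The regions crowded towards the 5′ ends of genes even beyond the 1 kb limit. Among the 674 with known strand, 45.1% lay 1 to 5 kb from the 5′ end, against 7.07% of the eligible sequence. This share includes regions over a listed start of the host, whose median distance from the 5′ end was 3.4 kb. The 3′-most 10% of the host held only 2.82% of the 674, against 8.65% of the sequence. The distances that follow are to the nearer end, so they pool both ends. Of the 823 regions with 1 host, 392 (47.6%) had their centre 1 to 5 kb from the nearer end of the host, against 12.8% of the eligible sequence. A further 226 (27.5%) lay 10 to 50 kb inside, against 37.8% of the sequence, and 25 (3.04%) lay over 100 kb inside, against 22.5%. The median distance to the nearer end was 5.65 kb. Of the regions with no listed start within 1 kb, 27.1% of the 361 with 1 host lay at 1 to 5 kb and 39.1% at 10 to 50 kb. Only 221 of the 363 such regions have a host in the start table, so unlisted starts may lie at some. Some regions were long enough to reach the end themselves: 51 (6.1%) spanned an end of a protein-coding gene although their centre lay over 1 kb from it.

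The limit cut through a continuous range of distances. In the 100 bp inside the limit there were 35 regions, and in the 100 bp outside it there were 62 shared regions. The 62 could be centred in a gene or beyond its end and the 35 only in a gene, so these counts are not alike. With the limit at 2.5 kb 542 regions were left, and at 5 kb 429. Just inside lay regions in Jund, an AP-1 subunit, at 1001 bp (folds 1.98 and 2.11 in replicates 1 and 2), in Zbtb44 at 1005 bp (1.54 and 1.27) and in Serp1 at 1006 bp (1.92 and 2.18). Just outside lay regions near Cit, a kinase of cell division, at 1000 bp (1.9 and 3.34) and near Dcaf11 at 998 bp (2.3 and 2.33). Farthest from any end were regions in Lrp1b, a large receptor gene, at 757364 bp, in Csmd1 at 549804 bp and in Eda, an ectodermal signalling ligand, at 201548 bp.

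The 836 regions lay in 786 host genes, 3.63% of the 21631 protein-coding genes on these chromosomes. Of the regions, 823 lay in 1 host gene each and 13 in 2 overlapping genes. Hosts were long, with a median of 55.8 kb against 21.3 kb over the 19190 genes long enough to hold such a region. Hosting was more frequent among longer genes: 1.32% of genes of 2 to 10 kb, 2.69% at 10 to 30 kb, 6.11% at 30 to 100 kb, 9.63% at 100 to 300 kb and 9.69% above 300 kb hosted a region. Per Mb of gene the order was the opposite, with 2.36 regions per Mb at 2 to 10 kb and 0.188 above 300 kb. Of the hosts, 81 (10.3%) also had a shared region at one of their own ends, against 16.8% of the 18404 long enough genes that were not hosts and 15.4% of all protein-coding genes. The definition bears on this comparison, since a promoter placed inside the annotated span counts as gene body.

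Hosts with several regions were few. A single region was found in 731 hosts, 2 regions in 49, 3 in 4 and 4 in 2. The 63 gaps between neighbouring regions of 1 host ran from 0.79 kb to 298 kb with a median of 13 kb. Of the 55 hosts with 2 or more regions, 30 had none over an annotated start of the host and 5 had 2 over such starts. In 17 of the 55 a region over a start stood together with a region that had no start within 1 kb. Some of the 30, such as Selplg, Cxxc5, Nfatc1 and Rbbp8, are not in the start table. No start could be counted for these, so the 30 may be too many.

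Cd247, which encodes the zeta chain of the CD3 complex, held 4 regions along 91.2 kb on chromosome 1. They began at 165788902, 165843924, 165847714 and 165863517 and lay 9.21, 65, 69 and 84 kb from the 5′ end. Their folds in replicates 1 and 2 were 1.59 and 1.75, 2.21 and 1.83, 1.43 and 2.03, and 1.86 and 1.82. None was above the medians over all regions by more than rounding, which were 2.21 in replicate 1 and 2.34 in replicate 2. The first region began just downstream of the listed start, and the middle pair overlapped the lncRNA gene Gm32999. The region 69 kb from the 5′ end held or lay within 1 kb of the start of some gene. None reached a q of 0.05 in either replicate, with −log10 q of at most 0.971 and 1.08.

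Tex14, a gene of germ cell bridges on chromosome 11, also held 4 regions, and each overlapped a nested gene of the U3 small nucleolar RNA, which guides ribosomal RNA processing. The nested genes were Rnu3b1 (87443237 to 87443451), Rnu3b3 (87448627 to 87448841), Rnu3b4 (87462286 to 87462503) and Rnu3b2 (87471368 to 87471582). In that order the regions had folds of 3.4 and 2.72, 5.88 and 2.38, 2.93 and 2.44, and 2.85 and 2.15 in replicates 1 and 2. Replicate 1 was the higher at all 4. These U3 genes are close copies, so reads of one may have been placed at another, and the 4 folds are uncertain as separate values.

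Mbnl1, Arid1b, Hivep2 and Rreb1 held 3 regions each. Mbnl1, a splicing regulator of 157 kb, had regions 1.89, 22.6 and 28.8 kb from its 5′ end, with folds of 4.37 and 2.16, 2.38 and 1.97, and 2.27 and 1.79 in replicates 1 and 2. The last of them covered a downstream start. Arid1b, a subunit of the BAF chromatin remodeller, had 1 region over its start, spanning the gene end (3.09 and 2.67), and others 98 kb (4.68 and 2.31) and 302 kb (2.28 and 2.22) inside. Hivep2, a zinc finger factor, had 1 region over its start (1.86 and 1.6) and others at 21.3 kb (2.14 and 1.3) and 124 kb (1.58 and 1.35). Rreb1, a zinc finger factor downstream of Ras, had 1 over its start at 48.5 kb (2.75 and 2.25) and others at 75.9 kb (2.62 and 2.14) and 102 kb (2.37 and 2.12). In Mbnl1, Arid1b, Hivep2 and Rreb1 every region had the higher fold in replicate 1.

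A further 9 of the 15 hosts with the most regions held a pair. Cdk6, a kinase of the G1 phase, had a region with 2170 bp covered by both replicates, whose start lay under the replicate 1 peak only (folds 2.25 and 2.44) and another 96 kb inside with 2347 bp (1.82 and 2.52). Tcf7, which encodes TCF-1, had a region over a start (chromosome 11, 52278777 to 52283053, folds 3.12 and 2.28) and another 7.54 kb from the 5′ end (52274478 to 52277199, folds 1.98 and 2.53). Ikzf1, which encodes Ikaros, had 2 regions, each over a start (chromosome 11, 11685786 to 11688365, folds 2.39 and 2.36, and 11689414 to 11693075, folds 1.8 and 3.01). Selplg, the selectin ligand PSGL-1 used in thymus homing, had 1 region in the gene (chromosome 5, 113824165 to 113826047) with folds of 3.65 and 4.3 and another spanning a gene end with 2.64 and 2.27. Elf1, an Ets factor, had regions at 36.5 and 40.9 kb, with folds of 2.17 and 3.83, and 1.97 and 4.23. In the region at 40.9 kb only 129 bp were covered by both replicates. Rnf157, a ubiquitin ligase, had regions at 22.8 and 54.1 kb (2.05 and 2.81, 2.06 and 4.26). Both genes were higher in replicate 2. Ppp2r5c, a subunit of phosphatase 2A, had 1 region over a downstream start (2.46 and 3.35) and another 31.1 kb from the 5′ end (2.57 and 3.74). Rnf220, a ubiquitin ligase, and Cxxc5, a CpG-binding zinc finger protein, also held 2 regions each, and their folds lay between 1.92 and 2.4.

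**Figure D2:**
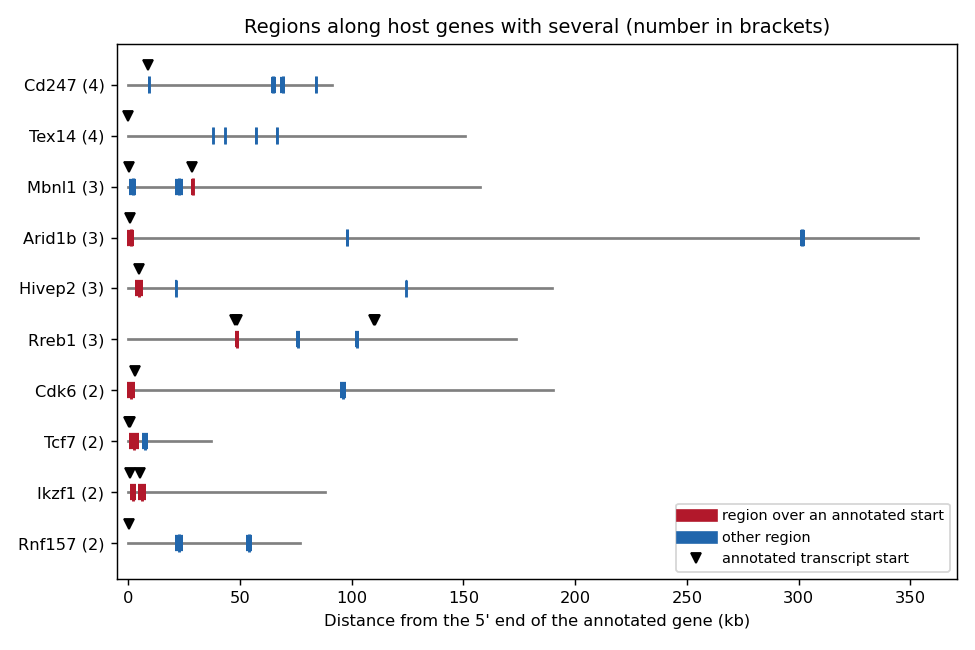
Regions (bars, to scale, with a thin line at each centre) along 10 host genes with several, by distance from the 5′ end in kb (x axis). Red marks regions over an annotated start, blue the others and triangles the listed starts. Arid1b and Cdk6 carry regions 302 kb and 96 kb from the 5′ end, while both Ikzf1 regions lie at its starts.

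The gene-body regions were wider at the median than those at gene ends in both replicates, and no test was made, since width is a value of the peaks that chose them. The merged width had a median of 1335 bp, against 1127 bp at gene ends and 1142.5 bp outside genes. The peak bp per region had medians of 1092.5 bp in replicate 1 and 878 bp in replicate 2, against 887 and 757.5 bp at gene ends and 781.5 and 685 bp outside genes. The wide tail was longer as well: 24.2% of the gene-body regions were over 2 kb and 9.45% over 3 kb, against 10.8% and 1.85% at gene ends, and 20.6% and 8.03% outside genes. The definition bears on width, since the centre of a wide region at a promoter lies farther from the gene end, and how much of the difference this makes was not tested. The 51 regions that spanned a gene end had a median of 3564 bp, and the other 785 had 1289 bp. Regions over a start of the host had a median of 1411 bp and those with no listed start within 1 kb, many of them in unlisted hosts, had 1231 bp.

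**Figure D3:**
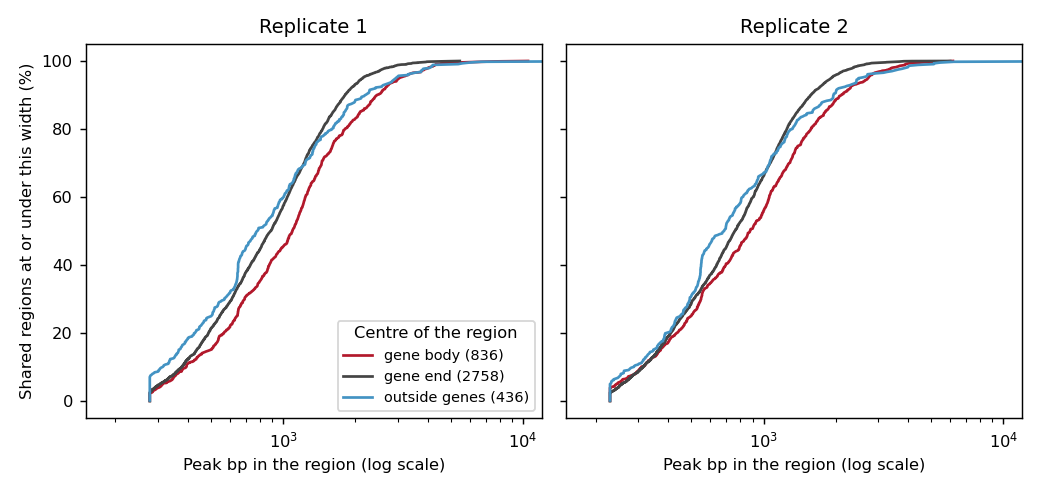
Cumulative share of shared regions (y axis, %) at or under a given number of peak bp (x axis, log scale) in each replicate, by where the centre lies. The gene-body curve lies to the right of the gene-end curve from the median (1092.5 against 887 bp, and 878 against 757.5 bp) to the wide end.

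The ranks of the regions were more alike between replicates in width than in fold. Across the 836 regions, Spearman's rho between replicates was 0.451 for peak bp and 0.253 for fold enrichment. These values are across regions of the same libraries, which are not independent replicates. Of all merged bp of these regions, 47.9% were covered by both replicates, against 52.3% at gene ends and 45.9% outside genes. Replicate 1 had the wider peaks in 515 regions (61.6%).

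Of the 15 widest regions by shared bp, most covered an annotated start or spanned a gene end. The widest had 5042 bp covered by both replicates in Tmem267, a membrane protein gene (chromosome 13, 119596543 to 119603319, folds 2.67 and 2.54), 10528 bp from the nearest gene end and with no listed start within 1 kb. Next were 4653 bp in a region centred in the predicted gene Gm40365 (chromosome 6, 47666405 to 47678400, folds 2.12 and 2.7). That region covered the whole 5.7 kb gene and reached past both of its ends. Rhoh, a haematopoietic GTPase of T-cell receptor signalling, followed with 4492 bp in a region that covered its start (chromosome 5, 65859855 to 65868821, folds 2.51 and 2.59). The predicted gene Gm40363, a neighbour of Gm40365, had 3795 bp in a region that spanned a gene end (47680891 to 47686832, folds 2.21 and 2.49). Tgif1, a homeobox repressor, had 3770 bp (1.96 and 2.84), and Sox4, a factor of lymphocyte development, had 3689 bp (2.01 and 2.74). Both regions covered a start, which in Sox4 lay under the replicate 1 peak only. Zc3h4, a zinc finger factor, had 3247 bp, Hnrnpl, a splicing factor, 2939 bp and Cep43, a centrosome gene, 2737 bp, all in regions that covered a start and spanned a gene end. Brd2, a reader of acetylated histones whose span overlaps H2-DMa, shared 2715 bp (2.23 and 4.21). Zfp36l2, a factor of mRNA decay, had 2669 bp in a region that covered the whole 4.02 kb gene and both of its ends (1.87 and 2.43). Elf1 had 2643 bp in a region inside the gene that began at 79515677, just downstream of a listed start at 79515674. The other 3 of the 15, in Selplg, Rnf220 and Arid1b, are given above. None of the 15 was among the 10 tallest regions.

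The 10 tallest regions shared 287 to 1220 bp between replicates. By the lower of the folds of the replicates, the first was in Mical3, a flavoprotein of the cytoskeleton (chromosome 6, 120966740 to 120967524), with folds of 5.3 and 5.46 and 295 bp covered by both. Irf1, an interferon regulatory factor, followed with 5.07 and 5.11 in a region over its listed starts. Chl1, a neural adhesion gene, had 5.34 and 4.54 (chromosome 6, 103648867 to 103649546), 139 kb from its 5′ end. Atad2b, a bromodomain gene, had 6.3 and 4.3, with its start under the replicate 1 peak only. Tnip1, an inhibitor of NF-kappa-B signalling, had 3.71 and 4.78, and Map3k14, the NF-kappa-B inducing kinase, had 3.68 and 4.89. Slc29a1, a nucleoside transporter, had 3.63 and 3.81, Zbtb11, a zinc finger factor, 3.92 and 3.59, and Pde1c, a phosphodiesterase, 3.53 and 4.63 (chromosome 6, 56233381 to 56234029), 419 kb from its 5′ end. Mical3, Chl1 and Pde1c lie on chromosome 6, and no listed start lay within 1 kb of them.

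Low folds with small q marked chromosome 9. The median fold of its 45 regions was 1.5 in replicate 1 and 1.23 in replicate 2, against chromosome medians of 2.09 to 2.52 and 2.18 to 2.53 elsewhere. Their median −log10 q was 10.9 and 7.49, against 0.883 and 1.15 over the other chromosomes. Of all 836 regions, 147 (17.6%) had q of at most 0.05 in both replicates, against 15.5% of all shared regions. Chromosome 9 held 40 of them, chromosome 6 held 14, chromosome 17 held 13 and chromosome 14 held 7. At a q of 1e-05 there were 39 (4.67%), against 4.25% of all shared regions, and chromosomes 6, 9, 14 and 17 held 36 of them. Within chromosome 9 the rho of the folds was 0.0183 over 45 regions, and it was 0.145 over the 791 on other chromosomes, so the pooled rho of 0.253 rests in part on the low level of chromosome 9.

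Regions with the smallest q were mostly of this kind. Tmem108, a transmembrane gene of neurons (chromosome 9, 103708436 to 103709665), had −log10 q of 31.3 and 20.4 with folds of 1.87 and 1.67. Rdx, a linker of actin to the membrane, had 26.6 and 16.8 (folds 1.89 and 1.36), Msl2, a subunit of an acetyltransferase complex, 33.3 and 15.1 (1.83 and 1.31), and Wapl, the cohesin release factor on chromosome 14, 37.7 and 16.6 (1.98 and 1.4). Ccdc15, Phip, Cox7a2 and Gm7995 were alike, with folds between 1.3 and 1.63 in both replicates. Chl1 was different, with −log10 q of 19.9 and 14.8 at folds of 5.34 and 4.54. Dnmt3a, a DNA methyltransferase on chromosome 12, had 26.1 and 13.8 (folds 3.1 and 1.86). Of the 39, 29 had folds under 2 in both replicates, and 24 of those lay on chromosome 9.

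**Figure D4:**
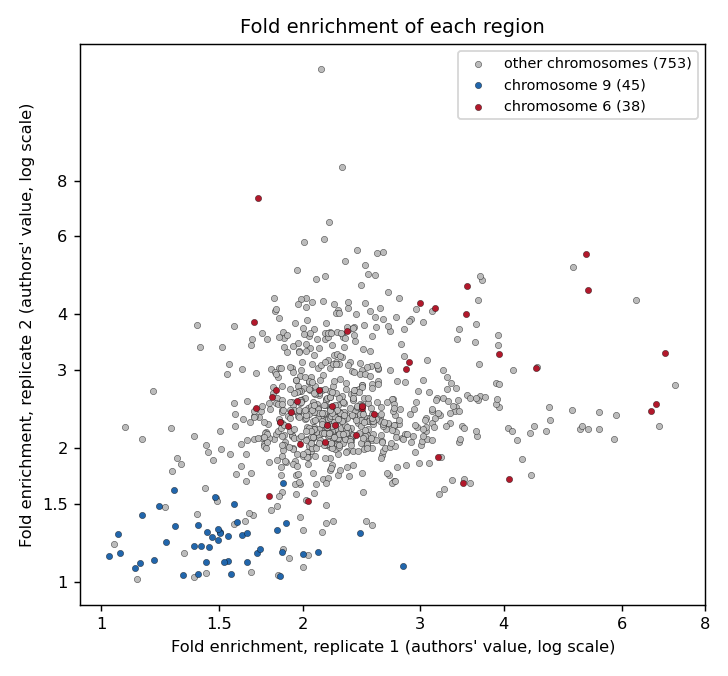
Fold enrichment of each region in replicate 1 (x axis) and replicate 2 (y axis), both log scale, with chromosomes 6 and 9 coloured. The 45 chromosome 9 regions sit low in both replicates (medians 1.5 and 1.23), and Mical3 (5.3, 5.46) and Chl1 (5.34, 4.54) stand at the upper right.

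T-lineage transcription factors hosted regions most often among the 14 gene lists. Of 18 such factors 9 were hosts (50%), against the 3.63% of all protein-coding genes. They are long genes, with a median of 84.7 kb, and at the shares of genes of their length 1.2 hosts stand beside the 9. The lists were chosen with earlier results of these data known, so the contrast is a description only. Bcl11b, needed for T-cell commitment, had a region with 2441 shared bp (folds 2.47 and 3.79). Gata3 had 1349 bp (2.33 and 2.34) 10.4 kb from the annotated 5′ end, with a listed start in the region or within 1 kb. Myb, a factor of early thymocytes, had 1834 shared bp (2.08 and 2.23) in a region that spanned a gene end. In Bcl11b and in Myb the region covered the listed start, but only the replicate 1 peak reached it, so the shared bp did not. Satb1, a chromatin organiser of thymocytes, had 637 bp 20.3 kb inside (2.79 and 2.26), also with a listed start in the region or within 1 kb. Tox, a factor of CD4 lineage development, had 1723 bp in a region centred 1.4 kb from a gene end (2.27 and 2.15). Zeb1, a zinc finger repressor, had 591 bp (2.45 and 2.41). Ets1, on chromosome 9, had 740 bp with folds of only 1.65 and 1.11. Tcf7 and Ikzf1 are given above. In 4 of the 9 hosts a region had no listed start within 1 kb, but of these only Tcf7 is in the start table, and Ets1, Tox and Zeb1 are not. At a q of 0.05 in both replicates 1 host was left, Ets1, whose folds were among the low ones of chromosome 9.

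Chromatin regulators and survival genes followed. Of 18 chromatin regulators 5 were hosts (27.8%, 1.3 at the shares of their length). Arid1a, a BAF subunit, had 2424 bp (2.06 and 2.11) and Kdm6a, an H3K27 demethylase, had 1296 bp (2.17 and 2.22). Both regions covered a start, which in Kdm6a lay under the replicate 1 peak only. Stag2, a cohesin subunit, had 1654 bp in a region that spanned a gene end (2.72 and 2.2). Kmt2d, an H3K4 methyltransferase, had 317 bp (1.8 and 1.45), and Dnmt3a a pair of regions of 169 and 1090 bp. Of 16 cytokine signalling and survival genes 4 were hosts (25%, 0.62 at the shares of their length). Ifngr1, a chain of the interferon gamma receptor, had 2424 bp in a region over its start (4.67 and 2.47), and Mcl1, a survival factor, 1563 bp in a region over its start (2.7 and 2.01). Both of these regions also spanned a gene end. Bcl2, a survival factor, had 410 bp 102 kb from its 5′ end (2.34 and 4.14), and Bcl2l1, which encodes BCL-XL, 795 bp 45 kb from it (2.37 and 2.07).

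Cell cycle genes were hosts in 3 of 18 cases (16.7%, 0.57 at the shares of their length): Cdk6, Mcm6, a subunit of the replicative helicase (2022 bp, folds 2.59 and 3.01), and E2f3, a factor of S phase entry (1852 bp, 3.52 and 2.64). T-cell receptor signalling genes were hosts in 2 of 18 cases (11.1%, 0.74), namely Cd247 and Lck, the kinase that starts receptor signalling. The Lck region (129556971 to 129559284, folds 2.08 and 3.24) lay over the downstream start printed above and over the microRNA gene Mir8119, and only 316 bp of it were covered by both. Genes of the double-negative stage were hosts in 2 of 14 cases (14.3%, 0.61). Dntt, terminal transferase, had 1965 bp (2.51 and 2.21) in a region that spanned a gene end, with its start under the replicate 2 peak only. Erg, an Ets factor of early progenitors, had 1904 bp 130 kb from the 5′ end (2.59 and 2.36). The Erg region had a listed start in it or within 1 kb. Of 16 Notch pathway genes only Maml3, a coactivator of Notch, was a host, with folds of 2.53 and 2.1, and 6.82 and 2.24 (6.25%, 1 at the shares of their length).

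Markers of other cells were nearly absent among the hosts. None of the 14 later thymocyte, 14 B-cell, 14 myeloid, 14 erythroid and megakaryocyte or 14 NK and innate lymphoid genes hosted a region. At the shares of their length 0.25 to 0.61 hosts per list would be counted, so a count of 0 does not set these lists apart from genes of their length. Counting regions at gene ends as well, 18.6% of all protein-coding genes had a shared region in the body or at an end. By that count 11 of 18 T-lineage factors had one, with 3.9 at the shares of their length, as did 7 of 18 receptor signalling genes (3.8) and 5 of 14 genes of the double-negative stage (3). Lists of general cell functions were similar, with 11 of 18 chromatin regulators (4.3) and 9 of 18 cell cycle genes (3.3). Cytokine and survival genes had 8 of 16 (3.1) and Notch pathway genes 6 of 16 (3.3). The later thymocyte, B-cell, myeloid and NK lists had 0, with 2.3 to 2.7 at the shares of their length, the erythroid list had 1, Tfrc (2.3), and the stroma list had 2 (2.9). Il2ra, which encodes the CD25 used in the sort, and Cd44 had none in the gene body or at their ends. Of 14 thymic stroma genes Pecam1, an endothelial adhesion gene, hosted a region of 107 shared bp (folds 2.63 and 1.93). Of the large neuronal genes, added as long genes known mainly from brain, 2 of 14 were hosts, Lrp1b (3.92 and 3.42) and Csmd1 (1.75 and 2.29). Their median length was 1810 kb, and 1.4 hosts stand at the shares of that length. With peaks of 1 replicate alone, 12.8% of all protein-coding genes held a gene-body peak in replicate 1 and 9.13% in replicate 2. On these peaks 11 of the 14 neuronal genes were hosts in replicate 1, with 8 at the shares of their length, and 11 in replicate 2, with 6.5. Of the 18 T-lineage factors 14 were hosts in replicate 1, with 4.3 at the shares of their length, and 11 in replicate 2, with 3.2. The length class above 300 kb has no upper limit, so the length shares of the neuronal genes are coarse.

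**Figure D5:**
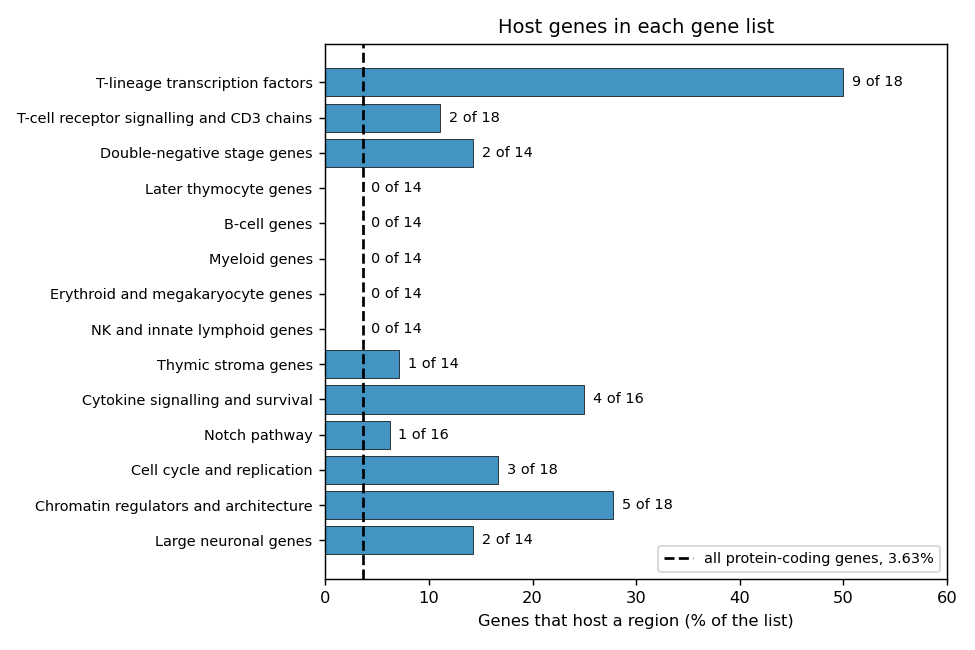
Share of each list that hosted a gene-body region (x axis, %), with the count beside each bar and the share over all protein-coding genes (3.63%) as a dashed line. T-lineage factors stand at 9 of 18, and 5 lists of other stages or cell types stand at 0. The lists were chosen with earlier results of these data known.

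In 127 regions (15.2%) another annotated gene overlapped the region, nested in the host or reaching beyond it, and in 106 there was a lncRNA. MicroRNA genes lay under 8 regions, the U3 genes, listed as small nuclear RNA, under the 4 in Tex14, and small nucleolar RNA genes under 2, in the ribosomal protein genes Rpl12 (Snora65) and Rpl17 (Snord58b). No transfer RNA gene lay under any. In 400 regions (47.8%) there was neither a listed start, a protein-coding gene end nor another annotated gene. Hosts missing from the start table can make this count too high.

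Few peaks inside gene bodies met a partner. Of the 3715 gene-body peaks of replicate 1, 23.1% lay in a shared region, against 63.6% of its 4316 gene-end peaks. Of the 2387 gene-body peaks of replicate 2, 35.3% did, against 71.8% of its 3878 gene-end peaks. The difference ran the same way in both replicates, but a shared region holds peaks of both, so these are not separate observations. No test was made over 2 samples.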

How the data were processed

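The data are 2 lists of H3K27ac peaks, 1 per replicate, with 12452 and 9532 peaks. The submitters' processing notes name Bowtie2, MACS 1.4.2 and the mm10 build. The 9-column broad peak layout is that of MACS2, so the version is uncertain. The deposited peak names record that duplicates were removed, and each sample has its own list. Neither the cutoff nor any use of the input is stated. For every peak the authors deposited a fold enrichment, which is a ratio, a −log10 p and a −log10 q, and these serve only to describe or rank peaks. Their deposited score follows from the −log10 q, by a factor of 10, and was not used. The files give no read counts, so the depth is unknown.

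Regions were merged, placed and counted in Python 3.11.15 with pandas 2.3.3 and numpy 2.4.6, and the merging was tested on simulated data. A region with several peaks of a replicate takes their highest fold and −log10 q. Coordinates count from 1. Gene spans, biotypes and starts came from RefSeq tables of GRCm38.p6. Gene spans can begin upstream of the listed starts, so a listed start can lie inside its gene. The start table lists 21045 starts of protein-coding genes, gives the strand, and holds a host of 685 of the 836 regions. Eligible sequence is gene-body sequence over 1 kb from every protein-coding gene end, read at every 10 bp. The share of hosts at a list's length is the sum of the host shares of its members' length classes.

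Named genes are the 15 hosts with the most regions, the 15 regions with the most shared bp, the 10 tallest by the lower fold, the 10 with the smallest q, all hosts of the lists, and the 3 regions farthest from an end and nearest to the limit on each side. One of the regions this rule names is not reported here. The regions and lists were chosen with earlier results of these data known. Motifs were planned for region centres. With no genome they were searched before annotated starts.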

Additional observations from a re-analysis of the deposited data

Results flagged for a closer look

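Peaks outside chromosomes 1 to 19 and X entered no comparison. There were 224 in replicate 1 and 103 in replicate 2, on chromosome Y and on unplaced sequences, and they are listed here because they lie in data not otherwise used.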

How the results depend on the processing

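Placing regions by the centre of the shared bp, leaving out chromosomes 6, 9, 14 and 17, or asking for an overlap of 50% of the shorter peak left the number, share, hosts, width, position, folds and T-lineage count within the limits used here (counts within 1.5 times, shares and medians within their interval or replicate SD). Counted from the ends of any annotated gene, the regions were 17.5% of shared regions. With the whole region required to lie inside, they were 14.9%, with 47.5% within 10 kb of the nearer host end and 69.8% in the 5′-most 50%. With 2.5 kb around gene ends there were 542 regions (12.9%) in 505 hosts, 36 of them with 2 or more, 39.8% within 10 kb, 65.9% in the 5′-most 50% and 18 listed hosts. With 5 kb there were 429 (10.2%) in 396 hosts, 33 with 2 or more, 23.8% within 10 kb, 59.9% in the 5′-most 50% and 17 listed hosts.

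With q of at most 0.05 there were 147 regions (22.7% of 649) in 140 hosts, 8 with 2 or more, 67.8% within 10 kb, 81.2% in the 5′-most 50%, median folds of 2.67 and 2.53, 6 listed hosts and 1 T-lineage factor. With q of at most 1e-05 there were 39 (21.9%) in 35 hosts, 4 with 2 or more, 66.7% within 10 kb, median folds of 1.6 and 1.36, 1 listed host and 0 T-lineage factors. Without regions at listed starts, a choice made after seeing the data, there were 363 (27.1%) in 338 hosts, 25 with 2 or more, 39.9% within 10 kb, 52% in the 5′-most 50%, 14 listed hosts and 4 T-lineage factors.

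Leaving out replicate 1 or 2, so that peaks of one replicate stood alone, gave 2387 to 3715 regions (25.3% to 30.4%) in 1974 to 2776 hosts, 345 to 645 of them with 2 or more. The median width was 534 to 590 bp, 40.1% to 41.3% lay within 10 kb and 59.4% to 63% in the 5′-most 50%. Here no partner was asked for, so the share is of all peaks of that replicate. The width is of peaks of 1 replicate, and so is unlike the merged width of 1335 bp. There were 60 to 69 listed hosts and 11 to 14 T-lineage factors. Without the need for a partner more regions and hosts are counted by design, and the cause of the differences in position was not tested. No paired analysis was possible because only 1 group has replicates. The unknown depth limits every absent peak.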
